A study of Mus musculus with 9 samples.

Results

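The genes described here encode 10 proteins that coat lipid droplets or sit on them: the perilipins Plin2, Plin3, Plin4 and Plin5, the CIDE proteins Cidea, Cideb and Cidec, the droplet enzyme Hsd17b13, and G0s2 and Hilpda, both inhibitors of adipose triglyceride lipase. They were taken by symbol from a table of raw read counts for 56748 genes, in which each symbol had 1 entry. All 10 passed the filter on low counts and were among the 13042 genes tested. The libraries were made from poly(A) RNA of whole liver tissue of C57BL/6J males aged 28 weeks, all fed a high-fat diet for the preceding 20 weeks. In the last 4 weeks, 5 mice received formoterol at 1 mg/kg by daily injection into the peritoneum and 4 mice received the DMSO vehicle. Formoterol is a long-acting agonist of beta-adrenergic receptors, which signal through cyclic AMP. Both groups carried the diet and the daily injection, so the comparison is of formoterol with vehicle in fat-fed males. The columns of the table were assigned to the groups by their suffix letter and the number of columns with each suffix.

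Hepatocytes store surplus fatty acids as triglyceride in droplets bounded by a single layer of phospholipid. Perilipins cover that surface and control the access of lipases, and Plin2 is the perilipin that accumulates in fatty liver. CIDE proteins gather where droplets touch and move lipid from smaller to larger ones, and Cideb also takes part in the loading of lipid onto very-low-density lipoprotein. Several of these genes respond to the fatty acid receptors PPAR alpha and PPAR gamma, and Cidea and Cidec, which are typical of fat cells, appear in hepatocytes of steatotic liver.

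The libraries held 12336665 to 20339665 counts and are named by the codes of their columns, M46 to M50 for formoterol and M56, M58, M59 and M60 for vehicle. Albumin and the other 9 hepatocyte markers together took 108900 to 149100 CPM (counts relative to the scaled library total) in formoterol libraries and 93200 to 106900 CPM in vehicle libraries. The perilipin of fat cells, Plin1, had 0 counts in all 9 libraries. Library M49 of the formoterol group stood apart from its group in several of the genes below, so the tests of the 10 genes are given with and without it. Because M49 was picked out from the values of these same genes, p-values without it are post hoc and are not independent support. CPM values are scaled with TMM factors, differences are log2 fold changes of formoterol minus vehicle with their standard error (SE), and adjusted p-values come from edgeR with Benjamini-Hochberg correction over all genes tested.

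Among the 10 genes, 6 had lower mean levels in formoterol livers by a log2 fold change of at least 0.77 in size. They were Plin2, Plin4, Cidea, Cideb, Cidec and Hsd17b13. The limit of 0.77 is the value of Plin2 itself, and no share of all genes at this limit is given. Of the 6, Cidea and Cidec had overlapping groups and an unadjusted edgeR p of 0.0891 and 0.0537. With all 9 libraries none of the 10 passed the edgeR test at an adjusted p under 0.05, and neither did any other gene (percent called over all genes 0). At an unadjusted p under 0.05, 5 of the 10 were lower (Plin2, Plin3, Plin4, Cideb and Hsd17b13) and 0 were higher, where 5.53% of all genes tested were lower and 9.03% were higher. The median log2 fold change was −0.78 over the 10 genes and −0.01 over all genes tested. Without M49 the edgeR test called 5 of the 10 lower (Plin2, Plin4, Cideb, Cidec and Hsd17b13), where 2.04% of the 12736 genes tested in that fit were lower and 3.47% were higher, and 0 of the 10 higher. Plin3, Plin5, Cidea, G0s2 and Hilpda did not pass the threshold with or without M49. Without M49 the log2 fold change was −0.10 for Plin5, 0.16 for G0s2 and −0.24 for Hilpda (edgeR adjusted p = 0.775, 0.885 and 0.765).

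**Figure D1:**
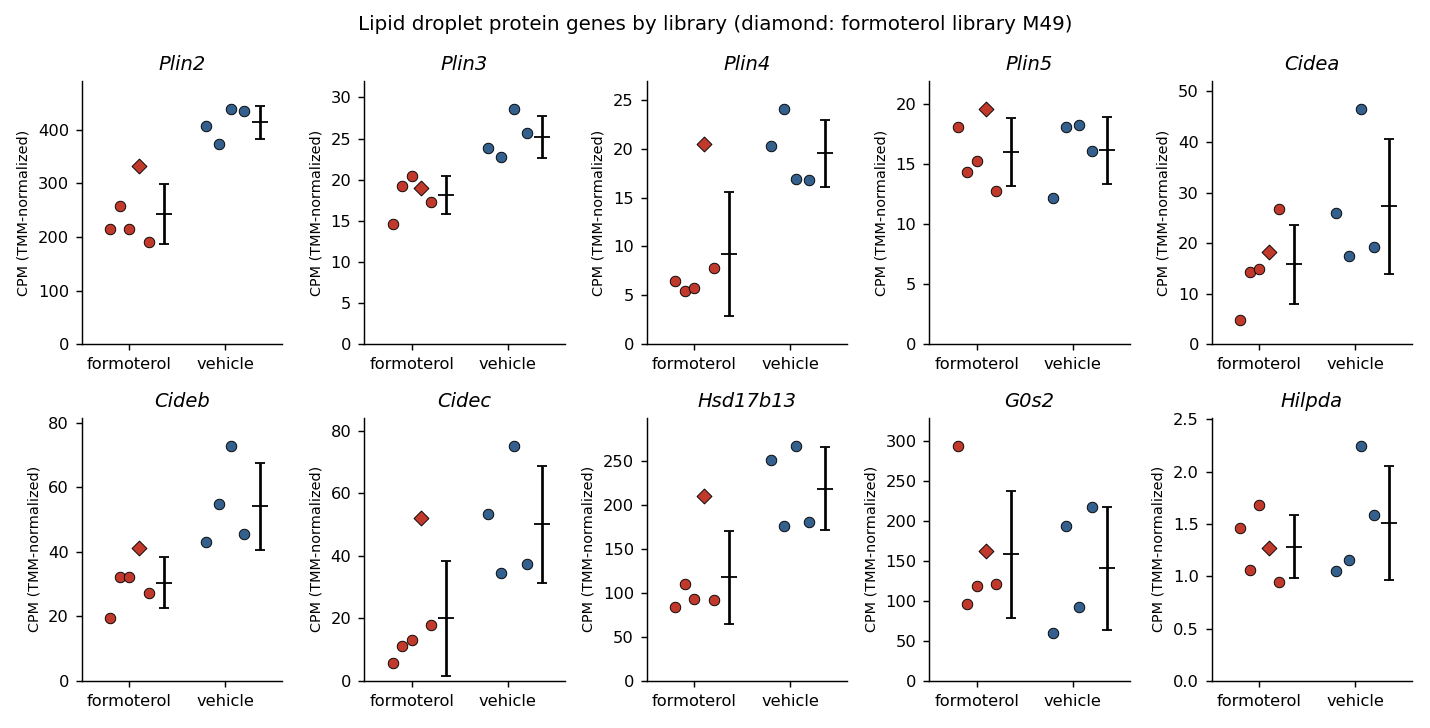
Normalized level (CPM) of each of the 10 genes in 5 formoterol and 4 vehicle libraries. Points are libraries, the diamond is formoterol library M49, and bars give mean ± SD. The groups do not overlap for Plin2, Plin3 and Cideb, and M49 lies inside the vehicle range for Plin4, Cidec and Hsd17b13.

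Plin2 (ENSMUSG00000028494; chromosome 4, 86566623 to 86588297 on mm39, minus strand) was the most abundant of the perilipin genes. It had 215, 258, 215, 332 and 191 CPM in formoterol livers M46 to M50, against 407, 373, 438 and 436 CPM in vehicle livers M56, M58, M59 and M60. Every formoterol library was lower than every vehicle library, and M49 came closest. The means were 242 ± 55.9 CPM in formoterol and 414 ± 30.3 CPM in vehicle livers (SD, n = 5 and 4), a log2 fold change of −0.77 (SE 0.17, edgeR adjusted p = 0.159). A two-sided exact permutation test over the libraries gave p = 0.0159, the smallest that 5 against 4 libraries allow. Groups that did not overlap in this direction were also found for Plin3 and Cideb, so 3 of the 10 genes, where 2.38% of all genes tested were separated with formoterol lower and 2.45% with formoterol higher. Without M49 the log2 fold change of Plin2 was −0.92 (SE 0.15, edgeR adjusted p = 0.00401).

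The promoter sequence of Plin2 is shown with those of Hsd17b13, which was also lower in most formoterol livers, and of Plin5, which was not. These are the 3 genes in whose promoter windows the motif AGGTCA was found. The sequences are from RefSeq on GRCm38.p6, a build other than that of the counts, run 5′ to 3′ on the strand of the gene and end at or near the annotated transcript start. Capitals mark 3 short motifs, searched on both strands. CACGTG is the E-box bound by factors such as USF and the carbohydrate response factor ChREBP with its partner. TGACG is the core of the cyclic AMP response element. AGGTCA is the core that PPARs and other nuclear receptors bind.
Plin2, chr4:86670054-86670299, minus strand: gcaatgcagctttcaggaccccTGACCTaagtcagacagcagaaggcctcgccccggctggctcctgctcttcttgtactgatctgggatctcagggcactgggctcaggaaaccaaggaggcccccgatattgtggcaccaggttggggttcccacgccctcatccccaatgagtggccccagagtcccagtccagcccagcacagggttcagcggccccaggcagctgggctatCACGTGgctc
Hsd17b13, chr5:103977389-103977508, minus strand: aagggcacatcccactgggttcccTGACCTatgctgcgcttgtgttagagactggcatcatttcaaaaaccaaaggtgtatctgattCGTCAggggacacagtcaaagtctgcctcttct
Plin5, chr17:56117549-56117738, minus strand: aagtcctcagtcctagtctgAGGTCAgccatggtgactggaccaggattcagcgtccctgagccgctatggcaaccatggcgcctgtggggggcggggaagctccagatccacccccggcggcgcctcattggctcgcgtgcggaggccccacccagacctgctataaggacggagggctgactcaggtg

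RefSeq promoter windows (250 bases before to 50 after a start) were matched for 9 of the 10 genes, which have 12 start windows in all. AGGTCA was found in 4 of the 12, belonging to Plin2, Hsd17b13 and Plin5, and in 16.3% of all 32851 windows. The core TGACG was found in 4 of the 12, belonging to Hsd17b13, G0s2 and Hilpda, and in 20.8% of all windows. CACGTG was found in 1 of the 12, that of Plin2, at bases −4 to 2 around the start, and in 7.15% of all windows. It contains the hypoxia core ACGTG on both strands, which was found in 2 of the 12 windows, the other belonging to Hilpda, and in 19.6% of all windows. The full cyclic AMP element TGACGTCA and a direct repeat of AGGTCA with 1 base between the copies were in 0 of the 12 windows, and in 1.79% and 0.0396% of all windows. AGGTCA was present in windows of Plin2 and Hsd17b13, with lower mean levels in formoterol livers, and of Plin5, whose log2 fold change was near 0. It was in no window of Plin3, Plin4, Cideb or Cidec, which also had lower mean levels in formoterol livers.

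Plin3, a perilipin made in most tissues that moves from the cytosol onto nascent droplets, had 14.6, 19.3, 20.4, 19.0 and 17.2 CPM in formoterol livers M46 to M50, against 23.8, 22.7, 28.6 and 25.7 CPM in vehicle livers. The groups were separate, with a narrow gap, and M49 lay among its own group. The difference was smaller than that of Plin2, with a log2 fold change of −0.48 (SE 0.15, edgeR adjusted p = 0.191; exact permutation p = 0.0159, two-sided), and −0.50 without M49 (edgeR adjusted p = 0.0782).

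Plin4, a long perilipin abundant in fat cells and muscle that coats small droplets, had 6.51, 5.46, 5.77, 20.5 and 7.82 CPM in formoterol livers M46 to M50, against 20.3, 24.0, 16.9 and 16.8 CPM in vehicle livers. In 4 of 5 formoterol libraries its level was far under every vehicle library, and in M49 it was within the vehicle range. The log2 fold change was −1.07 (SE 0.36, edgeR adjusted p = 0.220; exact permutation p = 0.0635, two-sided), and −1.61 without M49 (SE 0.19, edgeR adjusted p = 6.37e-04), when the formoterol mean was 6.39 ± 1.05 CPM (SD, n = 4).

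Plin5, the perilipin of oxidative tissues that tethers droplets to mitochondria, had 18.1, 14.3, 15.3, 19.6 and 12.8 CPM in formoterol livers, against 12.2, 18.1, 18.3 and 16.1 CPM in vehicle livers. The groups covered the same range, with a log2 fold change of −0.01 (SE 0.18, edgeR adjusted p = 0.984). On chromosome 17 Plin4 and Plin5 lie on the same strand with 1797 bp between them, and Plin3 is 159.9 kb beyond Plin5, so the gene with the largest estimate among the perilipins and the one with the smallest are neighbours. Plin4 also overlaps the opposite-strand gene Hdgfl2 by 17 bp, which had 24.7 ± 5.40 CPM in formoterol and 29.1 ± 9.12 CPM in vehicle livers (SD, n = 5 and 4).

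**Figure D2:**
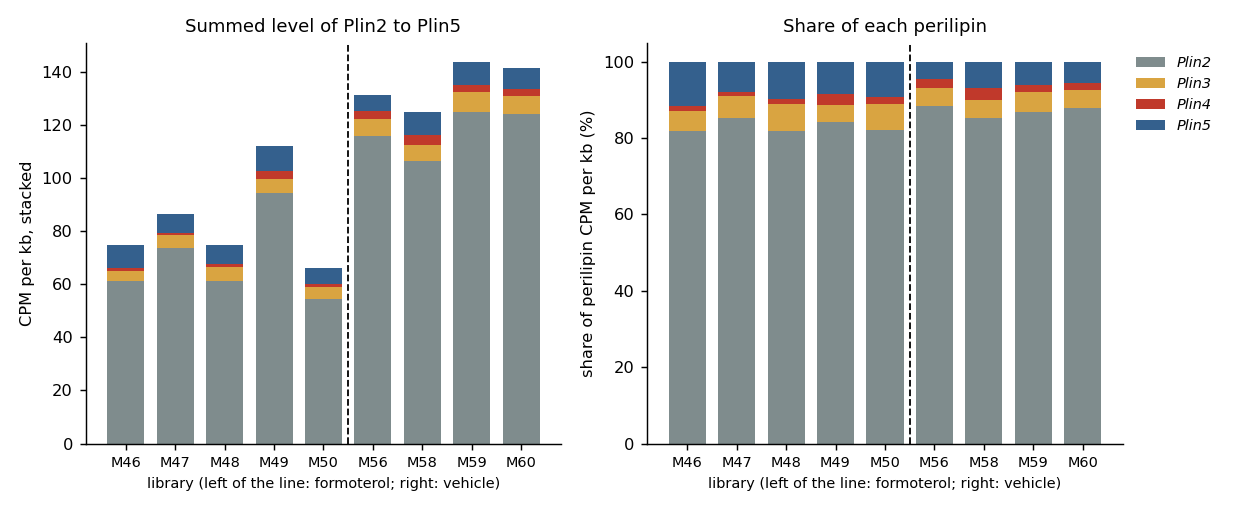
Level of Plin2 to Plin5 per kilobase of deposited gene length in each library, stacked (left, CPM per kb) and as a share of their sum (right, %). The sum is 66.2 to 112 CPM per kb in formoterol and 125 to 144 CPM per kb in vehicle libraries, and the share of Plin5 is 7.95 to 11.6% in formoterol and 4.46 to 6.95% in vehicle libraries.

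Per kilobase of gene length, Plin2 made up 83.0 ± 1.59% of the summed perilipin level in formoterol livers and 87.1 ± 1.38% in vehicle livers (SD, n = 5 and 4). The share of Plin5 was 9.40 ± 1.45% in formoterol and 5.74 ± 1.05% in vehicle livers, and every formoterol library was above every vehicle library. The level of Plin5 itself was 7.68 ± 1.34 CPM per kb in formoterol and 7.75 ± 1.35 in vehicle livers. Its larger share thus reflects the smaller sum, most of which is Plin2. Plin3 held 5.92 ± 1.15% in formoterol and 4.91 ± 0.22% in vehicle livers, and Plin4 1.66 ± 0.75% and 2.30 ± 0.56%. The summed level was 82.8 ± 17.9 CPM per kb in formoterol and 135 ± 8.82 CPM per kb in vehicle livers. These sums and shares are descriptions of genes chosen for this account and carry no test.

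Among the CIDE genes, Cidec (ENSMUSG00000030278; chromosome 6, 113401595 to 113412721 on mm39, minus strand), also called Fsp27 and needed for large droplets in steatotic hepatocytes, had the widest spread. It had 5.86, 11.2, 13.0, 52.1 and 17.8 CPM in formoterol livers M46 to M50, against 53.4, 34.6, 75.2 and 37.3 CPM in vehicle livers. M46, M47, M48 and M50 were each under the lowest vehicle library, and M49 was near the vehicle mean. The log2 fold change was −1.32 (SE 0.59, edgeR adjusted p = 0.355; exact permutation p = 0.0476, two-sided) and −2.06 without M49 (SE 0.33, edgeR adjusted p = 0.00960). Without M49 the formoterol mean was 11.96 ± 4.92 CPM (SD, n = 4), against 50.1 ± 18.7 CPM in vehicle livers (SD, n = 4).

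Cideb, the CIDE protein of normal hepatocytes, had 19.5, 32.2, 32.2, 41.2 and 27.4 CPM in formoterol livers M46 to M50, against 43.2, 55.0, 72.9 and 45.5 CPM in vehicle livers. The groups were separate, by a narrow margin between M49 and the lowest vehicle library. The log2 fold change was −0.83 (SE 0.21, edgeR adjusted p = 0.159; exact permutation p = 0.0159, two-sided) and −0.96 without M49 (edgeR adjusted p = 0.0150). Cideb overlaps the opposite-strand gene Nop9 over 1451 bp, and since the strand setting of the counting is not given, reads of the overlap cannot be assigned with certainty. Nop9 had 15.6 ± 2.29 CPM in formoterol and 12.8 ± 1.94 CPM in vehicle livers (SD, n = 5 and 4), a difference in the other direction.

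Cidea, on chromosome 18, which in mice is a brown fat protein that appears in hepatocytes with fat loading, had 4.88, 14.3, 14.8, 18.3 and 26.7 CPM in formoterol livers M46 to M50, against 26.0, 17.4, 46.5 and 19.2 CPM in vehicle livers. The groups overlapped, since M49 and M50 were above the lowest vehicle library, and M46 was the lowest of all. Cidea had a log2 fold change of −0.79 (SE 0.42, edgeR adjusted p = 0.424; exact permutation p = 0.143, two-sided). Without M49 the log2 fold change was −0.85 (SE 0.50, edgeR adjusted p = 0.341). It was −0.40 without vehicle library M59 and −1.07 without M50, and Cidea passed the threshold in none of these fits.

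Per kilobase, the order of mean levels among the CIDE genes in formoterol livers was Cideb (20.5 ± 5.32 CPM per kb), Cidea (14.2 ± 7.06) and Cidec (10.8 ± 9.94), while in vehicle livers it was Cideb (36.4 ± 9.05), Cidec (27.0 ± 10.1) and Cidea (24.5 ± 11.9; SD, n = 5 and 4). Cidea and Cidec did not differ from each other beyond these spreads in either group. The share of Cidec in the sum of the 3 genes was 14.9 to 18.4% in formoterol libraries M46, M47, M48 and M50 and 38.9% in M49, against 26.2 to 35.5% in the vehicle libraries.

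Hsd17b13 (ENSMUSG00000034528; chromosome 5, 104103306 to 104125276 on mm39, minus strand), a hepatocyte dehydrogenase bound to the droplet surface that is abundant in fatty liver, had 84.1, 110, 93.6, 210.4 and 91.5 CPM in formoterol livers M46 to M50, against 251, 176, 267 and 181 CPM in vehicle livers. As with Plin4 and Cidec, 4 formoterol libraries lay beneath the vehicle group and M49 lay within it. With M49 left out, 6 of the 10 genes had every formoterol library under every vehicle library. No share of all genes with this separation is given, and M49 was picked out from these same values. The log2 fold change was −0.89 (SE 0.26, edgeR adjusted p = 0.178; exact permutation p = 0.0476, two-sided) and −1.21 without M49 (SE 0.17, edgeR adjusted p = 0.00213), when the formoterol mean was 94.7 ± 10.8 CPM (SD, n = 4).

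Neither lipase inhibitor passed the test in any fit. G0s2, which blocks adipose triglyceride lipase, had 294, 96.8, 119, 163 and 121 CPM in formoterol livers M46 to M50, against 60.1, 194, 92.2 and 218 CPM in vehicle livers. Both groups were widely scattered and overlapped, with a log2 fold change of 0.17 (SE 0.43, edgeR adjusted p = 0.893). The log2 fold change was −0.18 without M46 and −0.08 without vehicle library M56. M46 was the formoterol library in which G0s2 was highest and Cidea, Cideb, Cidec and Hsd17b13 were lowest. The whole of G0s2 (1057 bp) lies inside the opposite-strand gene Lamb3, which had 4.46 ± 1.37 CPM in formoterol and 7.50 ± 1.86 CPM in vehicle livers, and without a stated strand setting reads of G0s2 and Lamb3 cannot be told apart. Hilpda, a hypoxia-induced inhibitor of the same lipase, was the least abundant, with 14 to 46 counts per library. It had 1.46, 1.06, 1.69, 1.27 and 0.94 CPM in formoterol livers, against 1.05, 1.15, 2.25 and 1.58 CPM in vehicle livers, with overlapping groups and a log2 fold change of −0.24 (SE 0.41, edgeR adjusted p = 0.828).

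**Figure D3:**
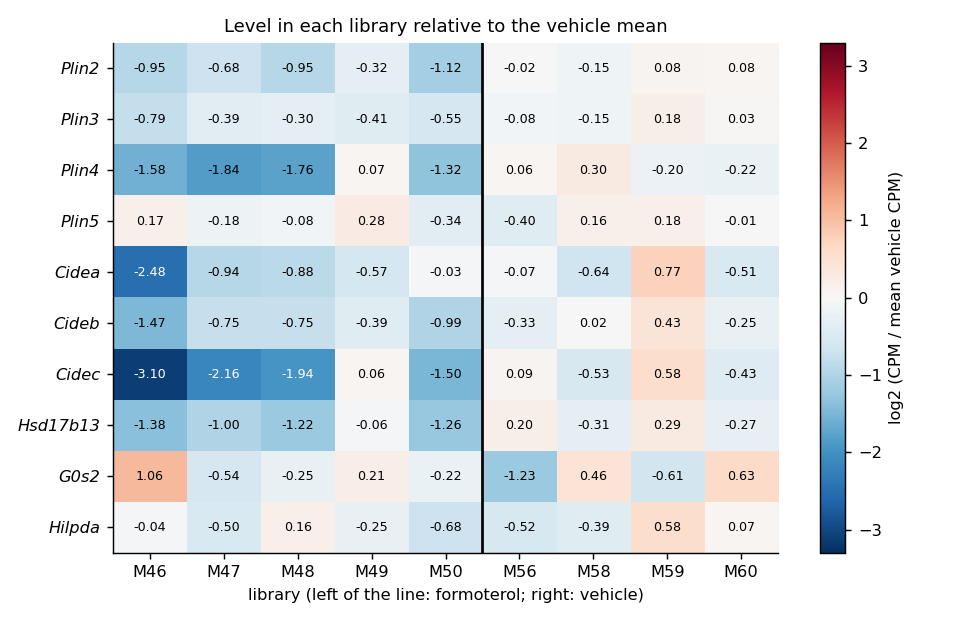
Level of each gene in each library as log2 of its CPM over the mean vehicle CPM; blue is lower and red is higher than the vehicle mean. Cidec ranges between −3.10 (M46) and −1.50 (M50) in 4 formoterol libraries and is 0.06 in M49, and Plin5 stays between −0.40 and 0.28 in all 9.

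Compared per kilobase across all 10 genes, G0s2 was highest in both groups (182 ± 91.2 CPM per kb in formoterol and 162 ± 88.2 in vehicle livers), followed by Plin2 (68.9 ± 15.9 and 118 ± 8.63), Hsd17b13 (54.6 ± 24.4 and 102 ± 21.8) and Cideb (20.5 ± 5.32 and 36.4 ± 9.05; SD, n = 5 and 4). Plin2 and Hsd17b13 did not differ beyond their spread in either group, nor did G0s2 and Plin2 in vehicle livers. Plin5 (7.68 ± 1.34 in formoterol and 7.75 ± 1.35 in vehicle livers), Plin3, Plin4 and Hilpda were the lowest, in that order in both groups, and Plin4 and Hilpda did not differ beyond their spread in formoterol livers.

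Within the formoterol group the genes tended to be highest in the same library. M49 had the highest level of the 5 formoterol libraries for 6 of the 10 genes (Plin2, Plin4, Plin5, Cideb, Cidec and Hsd17b13), as it did for 28.1% of all genes tested. Its level was 4.36 times the mean of the other formoterol libraries for Cidec, 3.20 times for Plin4, 2.22 times for Hsd17b13, 1.51 times for Plin2 and 1.06 times for Plin3. M46 had the lowest level for 5 of the 10 (Plin3, Cidea, Cideb, Cidec and Hsd17b13), as it did for 24.3% of all genes tested. M49 lay within the vehicle range for 6 of the 10 genes, and for 51.8% of all genes tested.

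**Figure D4:**
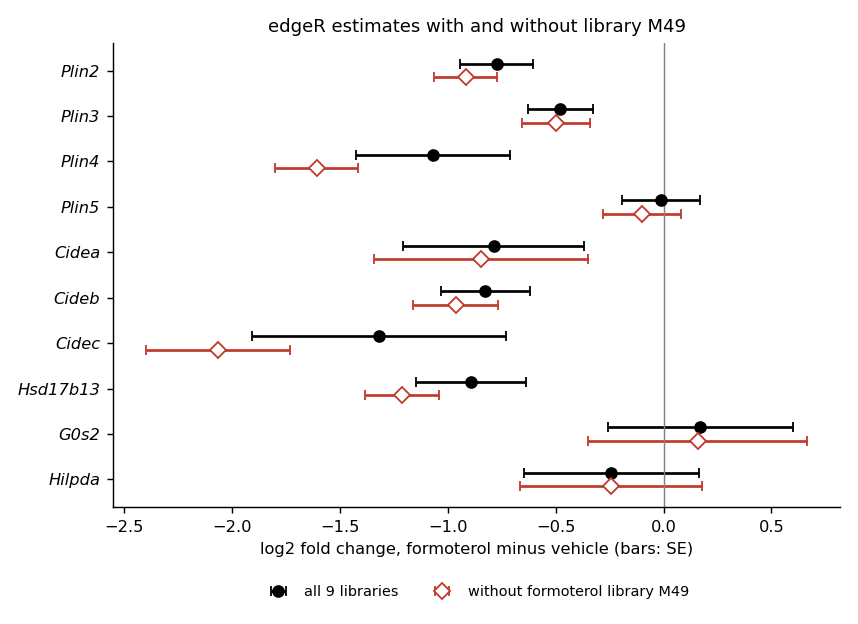
Log2 fold change of formoterol minus vehicle for each gene, from edgeR with all 9 libraries (filled circles) and without formoterol library M49 (open diamonds). Bars are standard errors. Estimates for Plin4, Cidec and Hsd17b13 are further from 0 without M49 (−1.61, −2.06 and −1.21), and those of Plin5, G0s2 and Hilpda lie within 1 SE of 0 in both fits.

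Other tools gave different counts of calls on the same 9 libraries. DESeq2, which gave an adjusted p to 9 of the 10 genes, called 4 of them lower (Plin2, Plin4, Cideb and Hsd17b13; adjusted p = 0.00352, 0.0451, 0.0184 and 0.0238), where 0.866% of the 9119 genes with an adjusted p were lower and 2.5% higher. Limma-voom called 0, with 6 of the 10 lower at an unadjusted p under 0.05, where 7.25% of the 13042 genes were lower and 8.34% higher. With weights for library quality, limma-voom called 6 of the 10 lower, where 4.46% of the same 13042 genes were lower and 6.07% higher. Without the filter on low counts, edgeR called Plin2, Cideb and Hsd17b13 lower, where 0.299% of 24041 genes were lower and 0.794% higher. In none of them was any of the 10 called higher.

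Lists of related genes were set beside the 10, and no gene of any list passed the edgeR test with all 9 libraries. Of 25 tested genes for other droplet proteins and droplet biogenesis, 4 were higher and 1 was lower at an unadjusted p under 0.05, and the median log2 fold change was 0.01. Without M49 edgeR called 1 of the 25 higher, Rab18 (log2 fold change 0.60, edgeR adjusted p = 0.0448), and 0 lower. Vmp1, which helps droplets and lipoproteins leave the endoplasmic reticulum, had 138 ± 45.5 CPM in formoterol and 91.4 ± 6.72 CPM in vehicle livers (log2 fold change 0.60). Acsl4, an acyl-CoA synthetase for arachidonate, had a log2 fold change of 0.50. Pcyt1a, which makes the phosphatidylcholine of growing droplets, had 19.5 ± 5.88 CPM in formoterol and 28.9 ± 5.29 CPM in vehicle livers (log2 fold change −0.57, SD, n = 5 and 4).

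Among 26 genes of triglyceride lipolysis and synthesis, 5 were lower and 2 were higher at an unadjusted p under 0.05, with a median of −0.14, and without M49 edgeR called 2 lower and 2 higher. Lipa, the lysosomal acid lipase that digests droplets delivered by autophagy, had 45.6 ± 7.56 CPM in formoterol and 74.5 ± 8.31 CPM in vehicle livers. Its log2 fold change was −0.71 (edgeR adjusted p = 0.151, and 0.00654 without M49). Mgll, the monoglyceride lipase, had a log2 fold change of −0.62, and was called without M49 (edgeR adjusted p = 0.0161). Higher values were found for the esterases Ces2a (174 ± 49.5 CPM in formoterol and 75.5 ± 24.5 CPM in vehicle livers; SD, n = 5 and 4) and Aadac (log2 fold change 0.47, and 0.57 without M49, edgeR adjusted p = 0.0395). Ces2a was called higher without M49 (log2 fold change 1.35, edgeR adjusted p = 0.00342), and it belongs to a family of close copies among which counting may split reads.

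The PPAR alpha list, targets of the receptor that fatty acids activate in fasted liver, had 9 lower and 1 higher of 27 genes at an unadjusted p under 0.05, with a median of −0.25. Of the 27, 16 had a negative and 11 a positive log2 fold change, and without M49 edgeR called 5 lower and 0 higher. Acadvl, the first dehydrogenase of mitochondrial beta-oxidation for long acyl chains, had 19.9 ± 3.72 CPM in formoterol and 34.2 ± 4.61 CPM in vehicle livers, and Ucp2, a mitochondrial carrier, 20.1 ± 8.46 and 40.5 ± 8.72 CPM (SD, n = 5 and 4). With all 9 libraries their edgeR adjusted p was 0.151 for Acadvl and 0.173 for Ucp2, and without M49 it was 0.00825 and 0.0230. Cyp4a10, a fatty acid hydroxylase, had a log2 fold change of 0.43. Of 7 PPAR gamma targets tested, 2 were lower and 1 was higher at an unadjusted p under 0.05, while 4 had a negative and 3 a positive log2 fold change. Without M49, 1 of the 6 then tested was called higher and 0 lower. The lower genes were Mogat1, a monoacylglycerol acyltransferase (log2 fold change −0.76), and Cd36, a fatty acid transporter, with 148 ± 27.0 CPM in formoterol and 207 ± 26.3 CPM in vehicle livers.

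The gene higher on the PPAR gamma list was Cfd, which encodes complement factor D (adipsin). It had 81.9, 86.6, 81.5, 20.3 and 107 CPM in formoterol livers M46 to M50, against 12.5, 6.67, 19.7 and 7.92 CPM in vehicle livers. The 4 formoterol libraries with low Cidec and Plin4 had the high levels of Cfd, and M49 was just above the highest vehicle library. Formoterol minus vehicle gave a log2 fold change of 2.68 (SE 0.50, edgeR adjusted p = 0.158) and 2.92 without M49 (edgeR adjusted p = 6.37e-04). Cfd is abundant in fat cells, and of 11 adipocyte markers 4 passed the count filter, Plin1 and Tshr had 0 counts in all libraries, Adipoq had at most 0.39 CPM and Lep was found in M49 alone, with 12 counts. The 11 markers summed to 57.6 to 138 CPM in formoterol and 31.2 to 44.7 CPM in vehicle libraries. Without Cfd the sums overlapped, at 16.8 to 37.3 CPM in formoterol and 21.3 to 25.0 CPM in vehicle libraries. The other tested markers Fabp4, Lipe and Adrb3 had log2 fold changes of −0.12, 0.00 and 0.68, none at an unadjusted p under 0.05. M49 had the highest sum without Cfd (37.3 CPM), ahead of M50 (30.7 CPM), and M46 had the lowest (16.8 CPM). Adipoq (0.39 CPM) and Fabp4 (15.3 CPM, next M59 with 11.9 CPM) were also highest in M49. Whether fat cells contributed to the levels of Plin4 and Cidec in M49 was not tested.

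**Figure D5:**
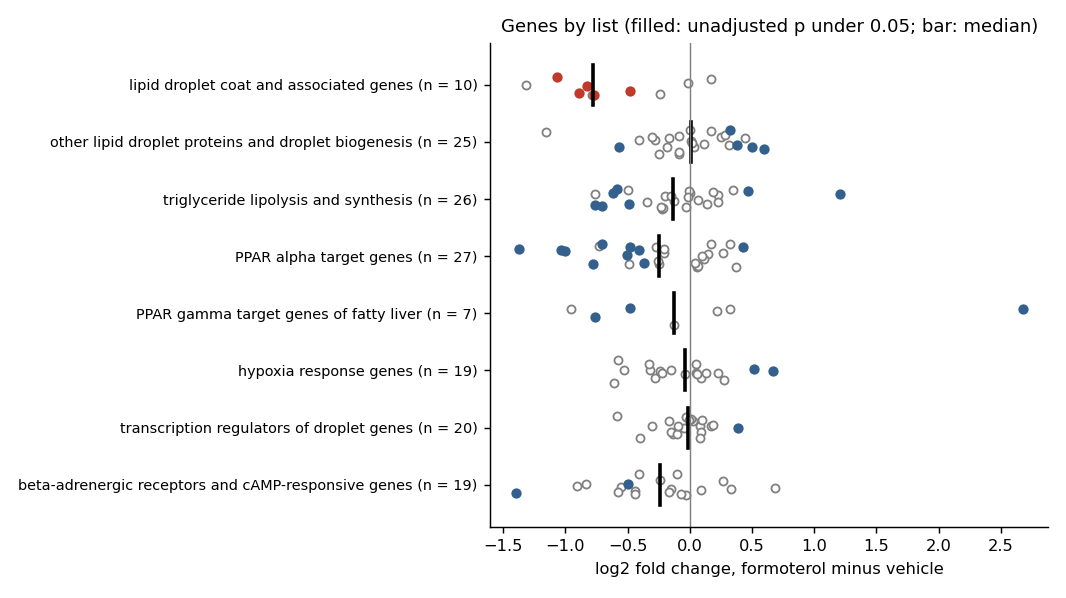
Log2 fold change of formoterol minus vehicle for the genes tested among the 10 and in 7 lists of related genes, cell type markers not shown; each point is a gene, filled where the unadjusted p was under 0.05, and black bars are medians. The 10 droplet coat and associated genes have a median of −0.78, the 7 lists have medians between −0.25 and 0.01, and the point at 2.68 is Cfd.

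Of 20 transcription regulators of these genes tested, 1 was higher and 0 were lower at an unadjusted p under 0.05, and the median was −0.02. The higher one was Nr1h3 (LXR alpha, a receptor for oxysterols), with 55.5 ± 7.23 CPM in formoterol and 42.3 ± 5.24 CPM in vehicle livers (SD, n = 5 and 4). Without M49, 0 of the 20 were called. Hypoxia response genes, which share their regulator with Hilpda, had 2 higher and 0 lower of 19 tested at an unadjusted p under 0.05, with Bnip3 at 280 ± 101 CPM in formoterol and 176 ± 25.2 CPM in vehicle livers and Slc2a1 at a log2 fold change of 0.51. Without M49, Bnip3 alone of the 19 was called (log2 fold change 0.82, edgeR adjusted p = 0.0324). Of 19 receptors and cyclic AMP-responsive genes, 0 were higher and 2 were lower at the same limit, both phosphodiesterases that degrade cyclic AMP. In this list 15 genes had a negative and 4 a positive log2 fold change, with a median of −0.24. Pde4a had 1.34 ± 0.81 CPM in formoterol and 3.60 ± 0.86 CPM in vehicle livers, and Pde4b a log2 fold change of −0.50. Without M49, Pde4a alone of the 19 was called (log2 fold change −1.67, edgeR adjusted p = 0.0433). Its level was low in formoterol libraries, at 0.33 CPM in M46 and 0.65 CPM in M48, and DESeq2 gave it no adjusted p.

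In bulk liver, fewer cells of a type and less RNA per cell cannot be told apart. Summed levels of macrophage markers (12 of 13 tested) were 120 to 355 CPM in formoterol and 195 to 334 CPM in vehicle libraries. Spp1, also a cholangiocyte marker, had the highest mean of either list and weighs heavily in both sums. It had 109 ± 73.9 CPM in formoterol and 128 ± 54.3 CPM in vehicle livers (SD, n = 5 and 4). Stellate cell markers (12 of 12) summed to 86.2 to 396 CPM in formoterol and 256 to 417 CPM in vehicle libraries, and endothelial markers (10 of 10) to 44.8 to 141 and 117 to 145 CPM. Dcn weighs heavily in the stellate sum, with 119 ± 52.9 CPM in formoterol and 152 ± 37.3 CPM in vehicle livers. In the macrophage, stellate and endothelial lists M46 had the lowest sum and M49 the highest of the formoterol group. These libraries were also lowest and highest of that group for Cideb, Cidec and Hsd17b13. At an unadjusted p under 0.05, 3 macrophage, 0 stellate and 1 endothelial marker were lower and 0 were higher, and 9 of 12, 10 of 12 and 9 of 10 had a negative log2 fold change. The endothelial marker was Wnt2, at 0.22 ± 0.31 CPM in formoterol and 1.05 ± 0.32 CPM in vehicle livers (SD, n = 5 and 4). Its level was near the count filter, which it passed mainly through the vehicle libraries. Without M49, edgeR called 3 macrophage markers lower, and 0 stellate and 0 endothelial markers. Of the 10 hepatocyte markers, 5 were higher and 0 were lower at an unadjusted p under 0.05, and 4 were called higher without M49. Cholangiocyte markers summed to 76.1 to 272 CPM in formoterol and 90.6 to 207 CPM in vehicle libraries, periportal markers to 6036 to 9005 and 4437 to 6980 CPM, and pericentral markers to 8703 to 17530 and 9618 to 11550 CPM. At an unadjusted p under 0.05, 0 of 6 cholangiocyte markers, 3 higher and 1 lower of 10 periportal markers, and 2 higher and 2 lower of 10 pericentral markers were counted. The part of these cell types in the levels of the droplet genes was not tested.

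The genes whose log2 CPM ran most like each member over the 9 libraries are given with Pearson's r as a description, since the points share the group difference and the position of M46 and M49. For Plin2 they were Bckdha (0.976), Pfkfb3 (0.973) and Trappc9 (0.960), and for Plin3 Insig2 (0.969), Ppp2r2a (0.961) and Lipg (0.932). Plin4 ran most like Unc119 (0.970), Tpm3 (0.961) and Cdkn1a (0.957). Cideb ran most like Smarcc1 (0.970), Ripk4 (0.942) and Pex11a (0.933), and Cidea like Fnip2 (0.961), Adgrv1 (0.959) and Bcl2l11 (0.953). For Cidec the closest were Anks4b, A4gnt and Nid1 (0.983, 0.983 and 0.981), and for Hsd17b13 Pdgfd, Anxa5 and Tlr12 (0.989, 0.985 and 0.982). Plin5 and G0s2 had other neighbours: Accs (0.946), Ensa (0.917) and Snrnp40 (0.890) for Plin5, and Tmed1 (0.925), Lmna (0.912) and Ndufaf3 (0.897) for G0s2.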

How the data were processed

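The values are whole-number counts, deposited by the authors as a gene table that also lists gene lengths in bp. HISAT2 2.0.5, mm39 and DESeq2 are named per the submitters' processing notes. For the counting program, strand setting and annotation release nothing is given in the sources used here, so reads of overlapping genes cannot be told apart. Columns carry codes and a group suffix but no replicate number: those ending in F (5) were read as formoterol and those ending in D (4) as vehicle, with the group sizes of the design text. Libraries were treated as separate mice, and if they are not, the p-values reflect technical spread only. No 2 libraries of a group agreed within sampling noise (chi-square per degree of freedom of at least 24.3).

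Genes were filtered with filterByExpr (minimum count 10, minimum total 15) and tested with edgeR 4.0.16 in R 4.3.3 (TMM factors, robust quasi-likelihood test, Benjamini-Hochberg adjustment, threshold 0.05). Alternatives used limma 3.58.1, DESeq2 1.42.0, other scaling, no filter, offsets for gene length and leaving out each library. Exact permutation tests were two-sided, on log2 CPM with a prior count of 2. On simulated counts for formoterol against vehicle over 13042 genes, edgeR found 51% of the genes given a 2-fold change. It found 80% of the genes given a 4-fold change, and 14 of its 145 calls were false. The simulated counts were drawn gene by gene, so no simulated library stood apart across many genes, and recovery in the real libraries may differ. The 10 genes and the lists were chosen with earlier results of these data known. Genes named from a list are up to 2 in each direction with the smallest p under 0.05. Beyond these, Rab18 was named because it was called without M49, and some cell type markers for their levels. Genes most like a member are the 3 with the highest correlation, for members averaging at least 5 CPM. Promoter motifs were chosen after the data were seen. Lists are other droplet proteins, triglyceride lipolysis and synthesis, PPAR alpha and PPAR gamma targets, hypoxia response, regulators, adrenergic and cyclic AMP genes, and cell type markers.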

Additional observations from a re-analysis of the deposited data

Results flagged for a closer look

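Of 20 sets of values (10 genes in each group), 3 had a library separated from the rest of its group by more than Dixon's 95% critical value (0.71 for 5 libraries), and chance flags about 1 in 20 sets. All 3 are formoterol library M49. Plin4 was 20.5 CPM there, and the next formoterol library had 7.82 CPM. Cidec was 52.1 CPM, with 17.8 CPM in the next library. Hsd17b13 was 210.4 CPM, with 110 CPM in the next. The 3 genes vary together over the libraries, so these are not independent flags.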

How the results depend on the processing

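Over all genes tested, the count of genes passing the threshold was 0 with edgeR and all 9 libraries, and of the 10 droplet genes 0. Without the filter on low counts these counts were 263 and 3, with DESeq2 307 and 4, and with limma-voom and quality weights 1374 and 6. Leaving out each library in turn gave 0 to 702 genes and 0 to 5 of the 10. The highest counts were those without M49, and without M60 the counts were 4 and 0. Why the tools differ was not tested. Plin2, Plin3, Plin4, Cidea, Cideb, Cidec and Hsd17b13 kept a negative log2 fold change under every alternative run. The estimates of Plin5, G0s2 and Hilpda changed sign: leaving out each library gave −0.125 to 0.053 for Plin5, −0.184 to 0.463 for G0s2 and −0.38 to 0.0209 for Hilpda, and offsets for gene length gave −0.0758 for G0s2. Scaling by library totals moved the median of all genes by −0.15, and of the genes at an unadjusted p under 0.05 it left 467 higher and 1292 lower, against 1178 and 721 with TMM. No paired analysis was possible because the columns carry no replicate numbers. Among the 10 genes, counts were lowest for Hilpda, at 14 to 46 per library.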
